A study of Mus musculus with 6 samples.

Results

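The 38 genes described here are the cytosolic aminoacyl-tRNA synthetases with a pair of their scaffold proteins, the enzymes of serine, glycine and asparagine synthesis and of transsulfuration, and the regulators and effectors of the ATF4 branch of the amino acid stress response. They were listed by gene symbol, with earlier results of these data known. Of the 38, 37 had a probe set annotated to that gene alone among 18192 genes on the array, and Dars was not analysed here. Each gene was represented by the probe set with the highest mean over the 6 arrays, and methionyl-tRNA synthetase is named Mars1 in the annotation.

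The cells were lineage-negative (Lin-) haematopoietic progenitors of C57BL/6J mice carrying the Rosa26rtTA allele, from which the doxycycline-dependent transactivator is made. Their medium held 20 ng/ml of interleukin-3 and 50 ng/ml each of interleukin-11, Flt3 ligand and stem cell factor, and they were transduced, given doxycycline at 1 µg/ml on the following day and sorted by EGFP 20 hours later. EGFP-positive cells (3 arrays) are labelled as transduced with pRRL.TET.EVI1.IRES.EGFP, a lentiviral vector in which a tetracycline-responsive promoter drives the transcription factor EVI1 and EGFP from 1 transcript. EGFP-negative cells (3 arrays) are labelled untransduced in their source field, but the design text describes a negative or low EGFP sort after transduction. In their description the EGFP-positive samples are called untransduced too, so both groups were taken from the sample titles. EGFP-negative cells may hold the vector, and a control vector with EGFP alone was not analysed here. The age of the mice and whether replicates came from separate cultures or animals are not stated in the labels. The p-values therefore cover the spread among these arrays alone, and that spread may be technical.

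An aminoacyl-tRNA synthetase joins an amino acid to its tRNA, and the cytosolic enzymes supply every cytosolic ribosome. When an amino acid runs short, uncharged tRNA activates the kinase GCN2, which phosphorylates the initiation factor eIF2alpha, slows general translation and favours translation of ATF4. ATF4 then raises transcription of synthetases, of asparagine and serine synthesis genes and of amino acid transporters, as well as of stress genes such as Ddit3, which encodes the transcription factor CHOP. In proliferating blood progenitors serine synthesis and the mitochondrial folate cycle also feed nucleotide synthesis. ATF4 is set largely by translation, so the transcript level of Atf4 is not a measure of its protein.

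Some differences between the sorted fractions stand beside every result below. Array medians lay between 5.11 and 5.14 on the log2 scale, and Pearson's r between arrays was 0.989 to 0.995 within groups and 0.968 to 0.969 between them. The excess of 3' over 5' signal, a sign of RNA quality or amplification, was for Actb 0.80 ± 0.05 (SD, n = 3) among EGFP-negative samples against 1.00 ± 0.03 among EGFP-positive samples, and 0.82 ± 0.02 against 1.06 ± 0.04 for Gapdh. The progenitor markers Kit, Cd34 and Flt3 were measured in both fractions and were lower in EGFP-positive cells, while Ptprc did not pass. Beside every marker count given here, 17.2% of all genes fell and 16.0% rose. The mean level of 6 neutrophil markers was 11.68 to 11.82 in EGFP-negative and 9.17 to 9.34 in EGFP-positive arrays, and 6 of 6 fell. Their differences were unequal, from -0.30 for S100a8 and -0.75 for Prtn3 to -3.69 for Mpo. Mast cell markers (4 of 4 fell) went from 11.20 to 11.24 down to 8.67 to 8.82, monocyte markers (4 of 4 fell) from 9.56 to 9.68 down to 7.23 to 7.53, and lymphoid markers (2 of 3 fell) from 6.12 to 6.35 down to 3.56 to 4.05. Erythroid markers (4 of 5 rose, with Slc4a1 at 6.25 the largest rise, while Alas2 fell by 1.86) had mean levels of 5.91 to 6.18 and 7.73 to 7.84, and megakaryocyte markers (1 of 3 rose) 8.16 to 8.28 and 8.66 to 8.81. Under 3.61, the highest value of any bacterial control probe set, an array gives only a bound. All 3 EGFP-negative arrays of Slc4a1 lay there, so it was at least 52.2-fold higher with them set to 3.61. Of the lymphoid markers, 2 EGFP-positive arrays of Dntt and 1 of Cd3e lay there too. The part of these marker differences in the results below was not tested. In such bulk samples, fewer cells of a type and less RNA per cell cannot be told apart.

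Most of these genes were lower in the EGFP-positive cells. Of the 37 measured, 29 (78.4%) passed as lower and 2 as higher (limma, Benjamini-Hochberg adjusted p under 0.05), against 17.2% lower and 16.0% higher (33.2% in either direction) among all 18192 genes. Their median difference, EGFP-positive minus EGFP-negative, was -0.78 on the log2 scale, beside 0.02 over all genes. In 30 of the 37 every EGFP-positive array lay below every EGFP-negative array, and in 4 every one lay above, where the shares over all genes were 24.4% and 23.8%. The members that did not pass as lower were Sars, Vars, Aimp1, Cbs, Trib3, Chac1, Sesn2 and Nupr1. Among them Sars (-0.27) and Aimp1 (-0.19) had negative differences. Leaving out an array left 24 to 27 members lower. The further probe sets of these genes, 41 in all, were fitted with all 45037 probe sets: 24 were lower, 1 was higher, 16 did not pass, and 0 passed against the call of their gene.

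**Figure D1:**
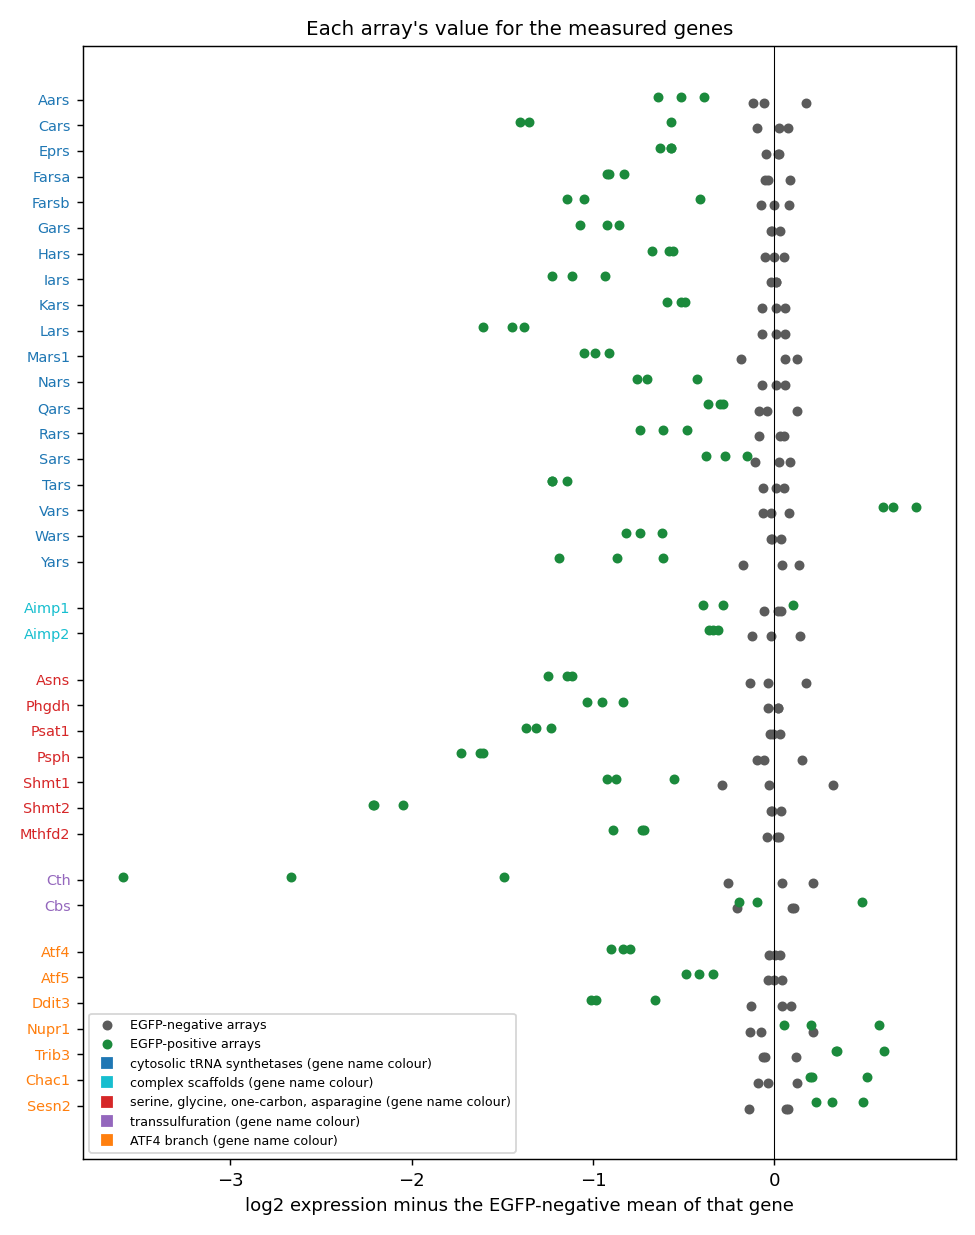
Each row is a gene and each point an array, placed at its log2 expression minus the mean of the 3 EGFP-negative arrays for that gene, with gene names coloured by role. Of 37 genes, 30 have all EGFP-positive points left of all EGFP-negative points (beside 24.4% of all genes). Vars and a few ATF4 branch genes have the EGFP-positive points to the right, and those of Cth are the most spread.

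**Figure D2:**
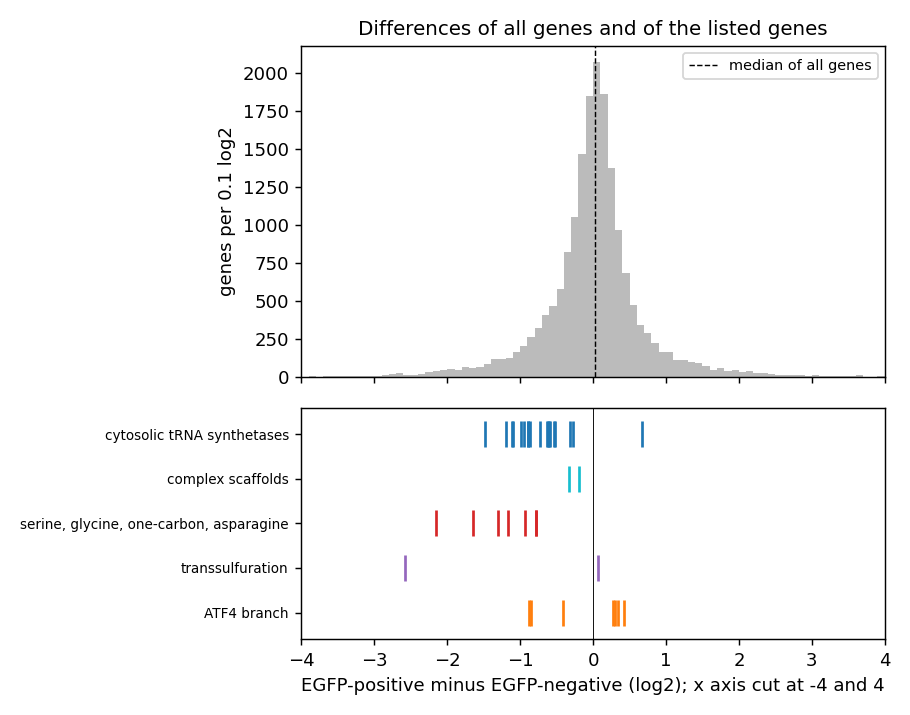
The upper panel is a histogram of the log2 difference (EGFP-positive minus EGFP-negative) over 18192 genes, with a dashed line at their median, and the lower panel marks each measured gene by role. The serine, glycine, one-carbon and asparagine genes lie between -2.15 and -0.78, and the ATF4 branch genes lie on both sides of 0.

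Short promoter stretches are shown because ATF4 acts with C/EBP partners through a composite element. Of the 9 members found to carry the motif below, 6 fell and 3 did not, of which Trib3 alone rose. Among all measured members 78.4% fell, and among all genes 17.2%. The motif TGATGNAA (N, any base) was searched on both strands from 250 bases before to 50 bases after each RefSeq start (GRCm38.p6). It was found in 9 of the 29 members with such a window, and in 4.51% of all 27025 genes with one. The genes Cars, Hars, Lars, Nars, Rars, Vars, Wars and Cth had no window in the table. With fewer than 80% of members covered, the share over all members is void as a check, but lists with at least that coverage can be read. It was in 3 of 7 ATF4 branch genes, 1 of 7 serine, glycine and asparagine genes and 8 of 20 other known ATF4 targets. Matches were few or absent in XBP1 and ATF6 branch genes (1 of 18) and mitochondrial tRNA synthetases (0 of 14). The same held for tRNA-related partners (0 of 5) and for Aimp1 and Aimp2 (0 of 2). The following 30-base stretches run 5′ to 3′ on the gene's strand, with the motif in capitals, and a match is a description of these letters and not a measured binding site.
Asns: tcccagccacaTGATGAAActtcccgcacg
Gars: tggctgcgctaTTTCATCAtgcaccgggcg
Iars: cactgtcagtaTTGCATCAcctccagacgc
Tars: caggagtcccgTTGCATCAgctggttagct
Yars: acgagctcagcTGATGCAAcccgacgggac
Trib3: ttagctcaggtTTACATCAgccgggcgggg
Chac1: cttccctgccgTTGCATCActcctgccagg
Nupr1: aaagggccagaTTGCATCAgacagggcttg

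These stretches lie at chr6:7693214-7693243 (Asns, minus strand), chr6:55037960-55037989 (Gars, plus), chr13:49682126-49682155 (Iars, plus), chr15:11399655-11399684 (Tars, minus), chr4:129189895-129189924 (Yars, plus), chr2:152344028-152344057 (Trib3, minus), chr2:119351038-119351067 (Chac1, plus) and chr7:126625562-126625591 (Nupr1, minus). Counted from the start of transcription, the motif runs from -23 to -16 in Asns, from -30 to -23 in Gars, from -15 to -8 in Tars, from -193 to -186 in Chac1 and from -110 to -103 in Nupr1. It falls just after the start in Iars (8 to 15), Yars (4 to 11) and Trib3 (15 to 22). Aars carries 2 matches, at -112 to -105 and 10 to 17. The first 5 genes on the list and Aars fell in EGFP-positive cells, Trib3 rose, and Chac1 and Nupr1 did not pass.

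Transcripts of nearly all cytosolic tRNA synthetases were lower in EGFP-positive cells. Of 19 measured, 17 fell (89.5%, beside 17.2% of all genes) and 1 rose (5.3%, beside 16.0%), and the median difference was -0.73. The largest fall was that of Lars, the leucyl-tRNA synthetase, which read 10.45, 10.50 and 10.37 in the EGFP-negative arrays and 8.83, 8.99 and 9.06 in the EGFP-positive arrays. That is a difference of -1.48 (SE 0.09), or 2.78-fold lower (limma, Benjamini-Hochberg adjusted p = 0.00013). Tars, which charges threonine, read 9.43, 9.55 and 9.51 against 8.27, 8.35 and 8.27 (difference -1.20, SE 0.08, 2.30-fold lower, adjusted p = 0.00014). In both genes the groups were separated by far more than the spread within either.

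Cars, the cysteinyl enzyme, and Iars, the isoleucyl enzyme, fell by similar amounts but with unlike spread. Cars read 7.13, 7.18 and 7.01 in EGFP-negative arrays and 5.70, 6.53 and 5.75 in EGFP-positive arrays (difference -1.11, SE 0.23, adjusted p = 0.012). EGFP-positive replicate 2 was the high array, and it still lay below every EGFP-negative array. The further, dimmer probe set of Cars did not pass (0.16, adjusted p = 0.60), and the mean of both gave -0.47 (0.011). Iars read 9.61, 9.58 and 9.61 against 8.38, 8.67 and 8.49 (difference -1.09, SE 0.10, adjusted p = 0.00044), and its further probe set was also lower (-1.17).

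Falls of nearly 2-fold were measured for the methionyl (Mars1, -0.98), glycyl (Gars, -0.95), tyrosyl (Yars, -0.89) and phenylalanyl enzymes. Gars, whose promoter match is printed above, read 10.36, 10.31 and 10.31 in EGFP-negative arrays and 9.47, 9.40 and 9.25 in EGFP-positive arrays (adjusted p = 0.00050). Phenylalanyl-tRNA synthetase is built of an alpha subunit (Farsa) and a beta subunit (Farsb), and both fell, by 1.85-fold and 1.82-fold. Farsa was tight within groups (8.24, 8.36 and 8.22 against 7.35, 7.36 and 7.44), whereas Farsb was not (9.35, 9.27 and 9.20 against 8.13, 8.23 and 8.86). Farsa differed by -0.52 (adjusted p = 0.0043) when its probe sets were averaged. With its brightest probe set whose name has no x, s or a suffix, Farsa differed by -0.45 (0.028). EGFP-positive replicate 3 was the high array for Farsb. Its call (adjusted p = 0.018) was lost without EGFP-negative replicate 1 (0.064), 2 (0.058) or 3 (0.052) or EGFP-positive replicate 2 (0.055). The probe set of Farsb with no x, s or a suffix showed -0.13 (0.58). That probe set was dim, with group means of 3.97 and 3.84 beside a bacterial control maximum of 3.61. Brighter further probe sets of Farsb were lower, at -0.66 (adjusted p = 0.024) and -0.87 (0.0050) among all probe sets.

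The smaller falls took in the tryptophanyl (Wars, -0.73, with its 3 further probe sets also lower), asparaginyl (Nars, -0.63), arginyl (Rars, -0.61), histidyl (Hars, -0.61) and glutamyl-prolyl (Eprs, -0.59) enzymes, with adjusted p from 0.0013 for Wars to 0.0067 for Nars. Lysyl (Kars, -0.53) and alanyl (Aars, -0.52) synthetases followed. Aars read 9.37, 9.14 and 9.08 against 8.56, 8.68 and 8.81, so the groups did not overlap, but without EGFP-negative replicate 1 its adjusted p moved from 0.017 to 0.053. Hars lost its call with its other probe set (-0.56, adjusted p = 0.061 among the most variable probe sets).

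The glutaminyl, seryl and valyl enzymes stood apart from this pattern. Qars, which charges glutamine, read 10.96, 10.80 and 10.75 in EGFP-negative arrays and 10.56, 10.47 and 10.54 in EGFP-positive arrays (difference -0.32, SE 0.09, adjusted p = 0.038). With its probe set lacking an x, s or a suffix the difference was -0.02 (adjusted p = 0.96). Whichever of the 6 arrays was left out, the call was lost, at adjusted p = 0.12, 0.091 and 0.058 without EGFP-negative replicates 1, 2 and 3 and 0.070, 0.094 and 0.071 without EGFP-positive replicates 1, 2 and 3. Sars, the seryl enzyme, did not pass (-0.27, 95% interval -0.51 to -0.03, adjusted p = 0.087). Its EGFP-positive arrays (10.33, 10.44 and 10.56) still lay below its EGFP-negative arrays (10.80, 10.74 and 10.60). In 2 of the 17 alternative fits Sars passed as lower, with limma adjusted p down to 0.018.

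Vars, the valyl-tRNA synthetase, was the 1 synthetase that rose. It read 7.55, 7.51 and 7.65 in EGFP-negative arrays and 8.17, 8.23 and 8.35 in EGFP-positive arrays, which is 1.60-fold higher (0.68, SE 0.09, adjusted p = 0.0020). All 3 EGFP-positive arrays lay above all 3 EGFP-negative arrays, where that held for 23.8% of all genes. The gene had 1 probe set, so no further probe set bears on the rise.

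Several synthetases sit in a large multisynthetase complex held together by the scaffold proteins encoded by Aimp1, Aimp2 and Eef1e1. Of the 7 complex enzymes measured (Eprs, Iars, Kars, Lars, Mars1, Qars and Rars) 7 fell (beside 17.2% of all genes), with a median of -0.61. Of the 12 others 10 fell, 1 rose (beside 16.0% of all genes) and 1 did not pass, with a median of -0.80. This grouping was made after the values were seen, and the difference between the medians was not tested. Aimp1 did not pass: EGFP-negative arrays read 9.44, 9.37 and 9.46 and EGFP-positive arrays 9.14, 9.03 and 9.53 (difference -0.19, 95% interval -0.53 to 0.15, adjusted p = 0.37). EGFP-positive replicate 3 was above every EGFP-negative array, and without it Aimp1 passed as lower (-0.34, adjusted p = 0.043).

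Aimp2 passed as lower (-0.34, SE 0.10, adjusted p = 0.038), with EGFP-negative arrays at 8.01, 7.74 and 7.85 and EGFP-positive arrays at 7.51, 7.53 and 7.56. It held without EGFP-negative replicate 2 (adjusted p = 0.047). Omitting EGFP-negative replicate 1 (0.11) or 3 (0.091) or EGFP-positive replicate 1 (0.089), 2 (0.082) or 3 (0.069) ended the call. Eef1e1, the scaffold listed with other partners, fell much more, from 8.03, 8.43 and 8.21 to 6.86, 6.28 and 6.47 (-1.69, adjusted p = 0.00085). In the same list of 6 tRNA-related genes 4 fell (66.7%, beside 17.2% of all genes) and 0 rose (beside 16.0%). The others that fell were Tarsl2, a second threonyl synthetase (-0.88), the tRNA export receptor Xpot (-0.79) and Qtrt1, which places queuine in tRNA (-0.58).

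The enzymes that make serine, glycine, one-carbon units and asparagine fell together, 7 of 7 (beside 17.2% of all genes), with a median difference of -1.17. The serine route starts with phosphoglycerate dehydrogenase, Phgdh, which read 11.07, 11.02 and 11.08 in EGFP-negative arrays and 10.10, 10.02 and 10.22 in EGFP-positive arrays (-0.94, SE 0.09, 1.92-fold lower, adjusted p = 0.00048). Psat1, the aminotransferase of the second step, went from 13.17, 13.21 and 13.15 to 11.81, 11.86 and 11.95 (-1.30, SE 0.08, 2.47-fold lower, adjusted p = 0.00011). Psph, the phosphatase that releases serine, went from 8.31, 8.52 and 8.27 to 6.74, 6.76 and 6.64 (-1.65, SE 0.10, 3.14-fold lower, adjusted p = 0.00011). Transcripts of Phgdh, Psat1 and Psph were lower in every EGFP-positive array than in any EGFP-negative array, an order found in 24.4% of all genes. The further probe sets of Phgdh (3) and Psat1 (1) were lower too, with differences from -1.35 to -0.68.

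Serine is split to glycine by the hydroxymethyltransferases, of which Shmt2 acts in mitochondria and Shmt1 in the cytosol. Shmt2 read 8.74, 8.79 and 8.74 in EGFP-negative arrays and 6.71, 6.54 and 6.55 in EGFP-positive arrays, 4.45-fold lower (-2.15, SE 0.08, adjusted p = 3.3e-05). Its 3 further probe sets gave -1.68, -1.76 and -1.75. Shmt1 read 7.24, 7.59 and 6.98 against 6.35, 6.72 and 6.40 (-0.78, SE 0.18, 1.72-fold lower, adjusted p = 0.020). The gap between groups was narrow for Shmt1, and its call was lost without EGFP-negative replicate 1 (0.059), EGFP-positive replicate 1 (0.060) or EGFP-positive replicate 3 (0.057), while 2 of its 3 further probe sets passed as lower, the most variable at -1.68.

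Mthfd2, the mitochondrial folate enzyme that follows Shmt2, went from 11.80, 11.73 and 11.79 to 10.88, 11.05 and 11.04 (-0.78, SE 0.09, 1.72-fold lower, adjusted p = 0.00093). Asns, asparagine synthetase and a classical ATF4 target whose promoter match is printed above, went from 9.93, 10.03 and 10.24 to 8.92, 8.95 and 8.82 (-1.17, SE 0.11, 2.25-fold lower, adjusted p = 0.00047). For both genes the further probe set was lower as well, at -0.93 for Mthfd2 and -1.13 for Asns.

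**Figure D3:**
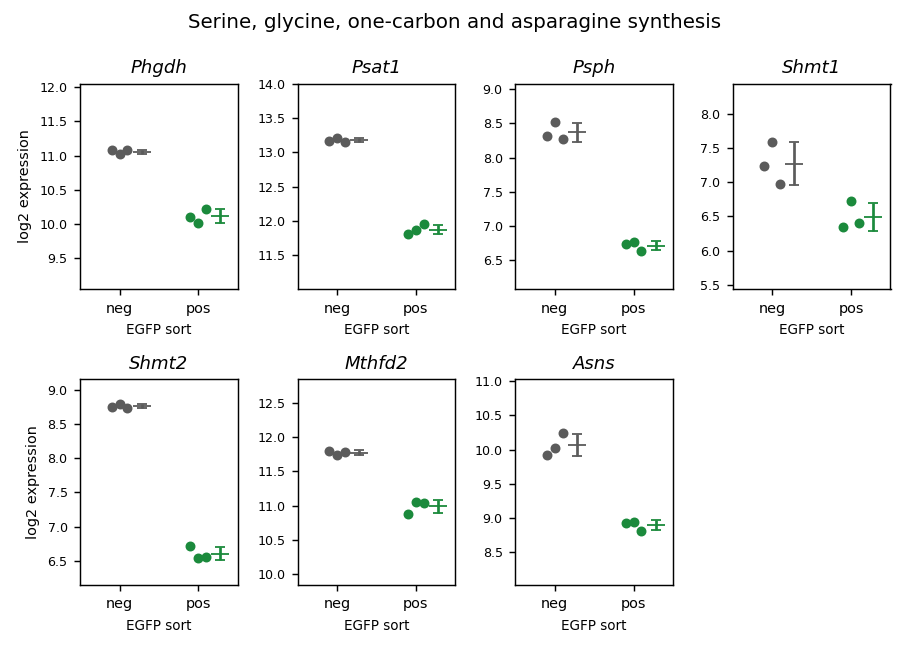
Points are log2 expression values of 3 EGFP-negative (neg) and 3 EGFP-positive (pos) arrays, bars beside them are the mean and SD, and every panel spans 3 log2 units. All EGFP-positive points lie below all EGFP-negative points in each of the 7 genes (beside 24.4% of all genes), and the gap is widest for Shmt2 (-2.15).

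The transsulfuration enzymes did not move alike. Cth, cystathionine gamma-lyase, which releases cysteine, had the largest measured difference of the 37 genes, with wide spread among EGFP-positive arrays. Its EGFP-negative arrays read 7.15, 7.33 and 6.86 and its EGFP-positive arrays 3.52, 4.45 and 5.62 (-2.58, SE 0.50, adjusted p = 0.0096). The lowest of these lay under 3.61, the highest value of any bacterial control probe set, and with that array set to 3.61 Cth was at least 5.86-fold lower. Without that array Cth stood at -2.08, a smaller difference than that of Shmt2 without it (-2.21). Cbs, cystathionine beta-synthase of the preceding step, read 5.31, 5.01 and 5.32 against 5.12, 5.02 and 5.70 (0.06, 95% interval -0.42 to 0.55, adjusted p = 0.85), and its groups overlapped.

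Within the ATF4 branch Atf4, Atf5 and Ddit3, which encode bZIP transcription factors, fell, Trib3 rose, and Chac1, Sesn2 and Nupr1 did not pass. Atf4 itself read 11.37, 11.40 and 11.34 in EGFP-negative arrays and 10.58, 10.47 and 10.53 in EGFP-positive arrays, 1.80-fold lower (-0.84, SE 0.08, adjusted p = 0.00045). Atf5, a relative translated under the same stress control, went from 9.88, 9.92 and 9.96 to 9.51, 9.44 and 9.58 (-0.41, SE 0.08, adjusted p = 0.0097). Ddit3, which encodes the pro-apoptotic factor CHOP, went from 9.26, 9.21 and 9.04 to 8.19, 8.16 and 8.51 (-0.88, SE 0.13, 1.85-fold lower, adjusted p = 0.0027). In each of the 3 all EGFP-positive arrays lay below all EGFP-negative arrays, as they did in 24.4% of all genes. By the test, 3 of the 7 branch genes fell (42.9%, beside 17.2% of all genes) and 1 rose (14.3%, beside 16.0%). With the mean of its probe sets Atf4 differed by -0.56 (adjusted p = 0.0023). Of the further probe sets of Atf4, 1 was also lower (-0.60) and the dimmest did not pass (-0.24), and the dimmer probe set of Ddit3, at -1.09, did not pass (adjusted p = 0.054 among the most variable probe sets).

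Trib3, a pseudokinase induced by ATF4 and CHOP, rose. It read 8.61, 8.60 and 8.79 in EGFP-negative arrays and 9.00, 9.27 and 9.01 in EGFP-positive arrays (0.43, SE 0.11, 1.35-fold higher, adjusted p = 0.028), and its further probe set was higher too (0.44). The call was lost without EGFP-negative replicate 1 (adjusted p = 0.093) or 2 (0.095) or EGFP-positive replicate 2 (0.057). Its EGFP-positive arrays all lay above its EGFP-negative arrays, where that held for 23.8% of all genes.

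The remaining branch genes did not pass. Sesn2, a leucine sensor that restrains mTORC1, read 7.32, 7.31 and 7.11 against 7.73, 7.56 and 7.47 (0.35, 95% interval 0.08 to 0.61, adjusted p = 0.055), and Chac1, which degrades glutathione, read 7.66, 7.72 and 7.88 against 8.26, 7.96 and 7.95 (0.30, 95% interval 0.01 to 0.60, adjusted p = 0.11). In both, every EGFP-positive array lay above every EGFP-negative array, where that held for 23.8% of all genes. Nupr1, a stress-induced chromatin protein, read 10.09, 9.74 and 9.80 against 9.93, 10.08 and 10.45 (0.28, 95% interval -0.13 to 0.68, adjusted p = 0.26), with overlapping groups. With the arrays shifted to the same median, Sesn2 passed as higher (0.37, adjusted p = 0.040).

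**Figure D4:**
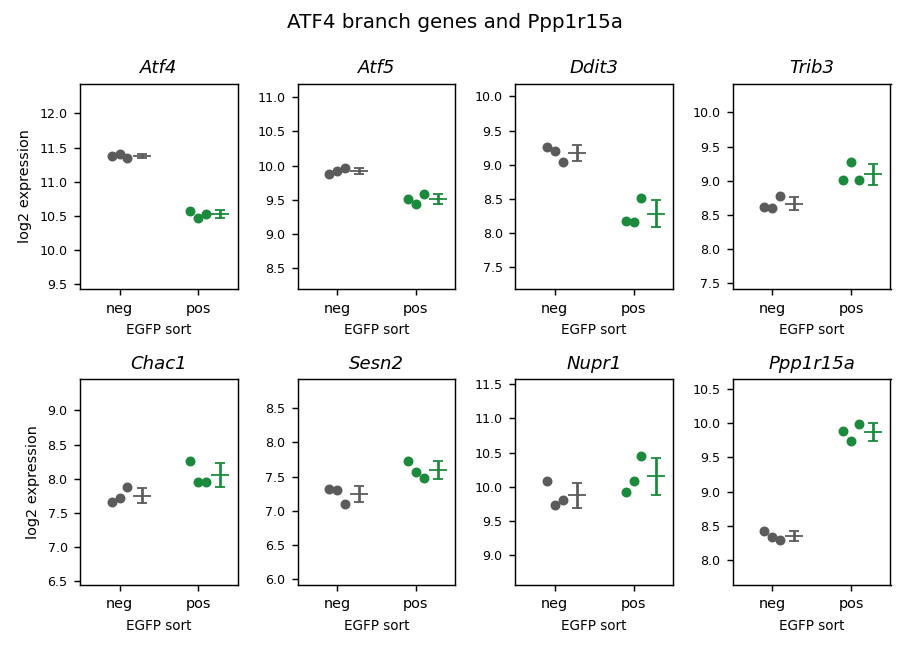
Points are log2 expression values of 3 EGFP-negative (neg) and 3 EGFP-positive (pos) arrays, bars beside them are the mean and SD, and every panel spans 3 log2 units. Atf4, Atf5 and Ddit3 are lower in all EGFP-positive arrays, Trib3 and Ppp1r15a are higher, and the groups of Nupr1 overlap.

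Upstream of ATF4 lie the kinases that phosphorylate eIF2alpha, the phosphatase subunits that reverse it, and Gcn1 and Impact, which promote and restrain GCN2. Of these 8 genes, 3 rose (37.5%, beside 16.0% of all genes) and 0 fell (beside 17.2%). The largest rise was that of Ppp1r15a, the stress-induced phosphatase subunit GADD34, from 8.43, 8.34 and 8.29 to 9.89, 9.74 and 9.99 (1.52, SE 0.10, 2.87-fold higher, adjusted p = 0.00013). Eif2ak1, the haem-regulated kinase HRI, rose by 0.42 (adjusted p = 0.010), or by 0.88 (0.0035) with its most variable probe set, and Eif2ak4, the amino acid sensor GCN2, by 0.39 (0.020). The call of Eif2ak4 was lost without EGFP-negative replicate 1 (0.076) or 3 (0.067) or EGFP-positive replicate 1 (0.055). It was also lost with the replicate block (0.070), the most variable probe set (0.28), the probe set lacking an x, s or a suffix (0.27) and the mean of its probe sets (0.084). Eif2ak3, the endoplasmic reticulum kinase PERK, did not pass (-0.07, 95% interval -0.26 to 0.12), nor did Eif2ak2, the double-stranded RNA kinase PKR (0.20).

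Other genes that ATF4 is known to induce were divided. Of 25 measured, 14 fell (56.0%, beside 17.2% of all genes) and 6 rose (24%, beside 16.0%), with a median of -0.43. Bcat1, which transaminates branched-chain amino acids, went from 10.54, 10.45 and 10.48 to 7.11, 6.58 and 7.01, 12.0-fold lower (-3.59, SE 0.15, adjusted p = 3.7e-05), and Jdp2, a bZIP repressor, fell by 1.77. The fall of Bcat1 was smaller when its probe sets were averaged (-2.04) and with its probe set lacking an x, s or a suffix (-1.29, adjusted p = 0.0027). The neutral amino acid transporter Slc1a4 rose from 10.22, 10.17 and 10.02 to 11.48, 11.45 and 11.53 (1.35, adjusted p = 0.00013), and the glycine transporter Slc6a9 from 12.20, 12.15 and 12.18 to 13.21, 13.32 and 13.33 (1.11, adjusted p = 0.00017; 1.80 with its most variable probe set). Other carriers on the list, named after their values were seen, went in both directions. Slc1a5 (-0.71, adjusted p = 0.0039), Slc7a1 (-0.79, 0.00073), Slc7a3 (-0.69, 0.0044) and Slc7a5 (-1.61, 0.00017) fell. Slc3a2 (0.47, 0.0063) and Slc7a11 (0.49, 0.0083) rose, and Slc38a2 (-0.08, 0.54) did not pass.

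The other branches of the unfolded protein response, run by XBP1 and ATF6, moved one way. Of 21 genes, 16 fell (76.2%, beside 17.2% of all genes) and 0 rose (beside 16.0%), with a median of -0.68. In all 21 every EGFP-positive array lay below every EGFP-negative array, where that held for 24.4% of all genes. Examples were the chaperone genes Hsp90b1 (-1.08, adjusted p = 0.00072) and Manf (-0.92, 0.00059). Leaving out an array left 12 to 15 of them lower.

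Mitochondrial tRNA synthetases, which serve the organelle's own ribosomes, gave few calls with the brightest probe set. Of 16 measured, 2 fell (12.5%, beside 17.2% of all genes), Yars2 (-1.02, adjusted p = 0.011) and Rars2 (-0.56, 0.030), and Fars2 rose (0.78, 0.0070). The median was -0.26, beside -0.73 for the cytosolic enzymes, and the difference between the lists was not tested. In 7 of the 16 every EGFP-positive array lay below every EGFP-negative array, where that held for 24.4% of all genes. Falls numbered 4 with eBayes trend, the ceiling filter or the most variable probe set, 5 above the median gene and 6 with the mean of all probe sets, so the order of that share and the share over all genes depends on the setting. The count ran from 1 without EGFP-negative replicate 2 or 3 to 4 without EGFP-positive replicate 1. Rars2 lost its call without EGFP-negative replicate 2 (0.068) or 3 (0.071) or EGFP-positive replicate 2 (0.082) or 3 (0.067).

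**Figure D5:**
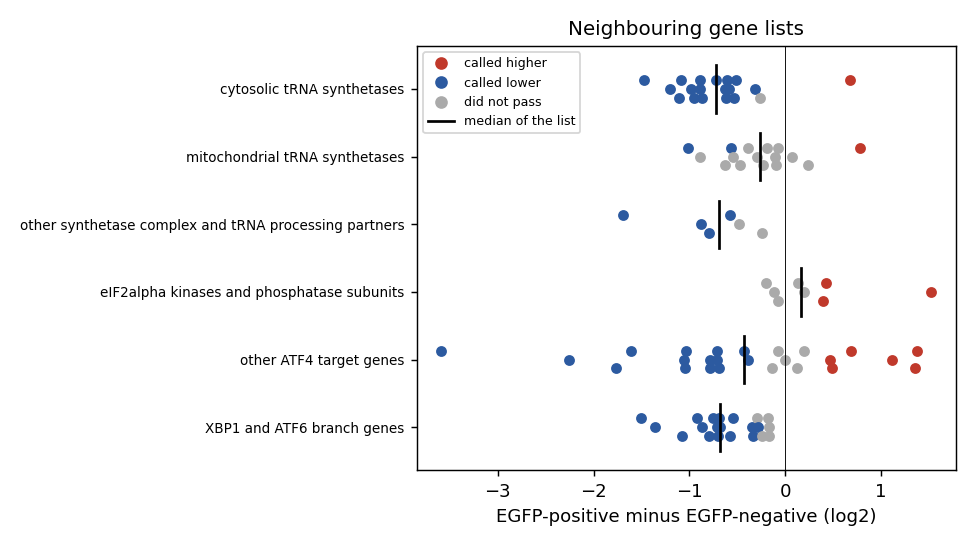
Each point is a gene at its log2 difference, EGFP-positive minus EGFP-negative, coloured by whether it passed the test, and the vertical bar is the median of the list. Cytosolic synthetases (median -0.73) and XBP1 and ATF6 branch genes (-0.68) lie mostly left of 0, and mitochondrial synthetases (-0.26) lie closer to it.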

How the data were processed

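Total RNA of 6 samples was amplified from the 3' end and hybridised to Affymetrix arrays, per the labels' protocols. The deposited table holds probe set values on the log2 scale, for which the submitters' processing notes name RMA, with settings not given in the sources used here. RMA as usually run gives all arrays nearly the same distribution, so a change in total RNA per cell cannot be read from its output. Scanner files were not used here, and arrays carry no read depth, so their number, 3 per group, limits precision.

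The table held 45101 probe sets, 64 of them controls. Probe sets were named by GEO's platform annotation (34945 with 1 gene, 932 with several, 9160 with none in the table used here), and 1 symbol with more than 1 Entrez identifier was dropped. Each gene took its brightest probe set, with no filter on dim ones. The 27 probe sets for bacterial transcripts reached 3.61 at most, the ceiling below which an array gives only a bound. The test was that of limma 3.58.1 (R 4.3.3), by lmFit with eBayes (EGFP-positive minus EGFP-negative, no covariate, two-sided) with Benjamini-Hochberg adjustment over all 18192 genes and a threshold of 0.05.

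The members and lists were chosen with earlier results of these data known. All measured members are named. From the other lists the text names the 2 genes that rose and the 2 that fell with the smallest p. Further names (Xpot, Qtrt1, Eif2ak2, Eif2ak3, Eif2ak4, Gcn1, Impact, Aldh1l2, Slc1a5, Slc7a1, Slc7a3, Slc7a5, Slc3a2, Slc7a11, Slc38a2) were chosen after their values were seen. Promoter windows are those of RefSeq, and 29 members had one. The 17 alternative fits are described in the closing section.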

Additional observations from a re-analysis of the deposited data

How the results depend on the processing

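Under 17 alternative fits, 23 of the 31 called members kept direction and call in every fit that tested them (16 for Cth, which the median-gene filter drops), and 8 lost the call in at least 1. The count of lower members ran from 24 to 29 and that of synthetases from 14 to 18, and leaving out an array gave 1 to 2 higher members and a members' median of -0.779 to -0.709. That median was -0.867 with the most variable probe set, -0.634 with the mean of all probe sets and -0.629 when probe sets without an x, s or a suffix came first. ATF4 branch rises numbered 2 with arrays shifted to the same median, above the median gene or above the bacterial ceiling, and 0 to 1 without an array. Scaffold falls were 0 with eBayes trend, array weights, the most variable probe set or the mean of all probe sets, and 0 to 1 without an array. Mitochondrial synthetase falls were 4 with trend, the ceiling filter or the most variable probe set, 5 above the median gene, 6 with the mean of all probe sets and 1 to 4 without an array. Among eIF2alpha genes 1 fell with trend or above the median gene. The median of all genes turned to -0.031 above the median gene and -0.004 above the ceiling, and Cbs, called under none of them, ran from -0.144 to 0.192 when an array was left out, with -0.039 without EGFP-negative replicate 2 and -0.144 without EGFP-positive replicate 3. Fewer genes are tested under the filters, and the cause of the other changes was not tested. Same-numbered samples did not deviate together (correlations 0.012, -0.011 and 0.002, with 3 of 6 samples closest to their own number), so the numbers are not taken as pairs. The replicate block gave 1 higher member, 0 ATF4 branch rises and 0 scaffold falls. The stricter motif TGATGCAA was in 1.03% of all genes with a window. It was in 2 of 7 ATF4 branch genes, 7 of 20 other known ATF4 targets and 0 of the 7 serine, glycine and asparagine genes.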

Other observations

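Carriers and enzymes around these genes, chosen after their values were seen, went in both directions. Slc7a5, the large neutral amino acid transporter, read 11.70, 11.65 and 11.72 in EGFP-negative arrays and 10.05, 9.93 and 10.28 in EGFP-positive arrays (-1.61, 3.04-fold lower, limma, Benjamini-Hochberg adjusted p = 0.00017). Slc3a2, the heavy chain with which it pairs at the membrane, rose from 10.79, 10.74 and 10.79 to 11.28, 11.14 and 11.29 (0.47, adjusted p = 0.0063), as did Slc7a11, the cystine carrier that uses the same heavy chain (0.49, adjusted p = 0.0083). Aldh1l2, a mitochondrial folate enzyme, went from 7.86, 7.94 and 8.01 to 6.02, 6.14 and 4.88 (-2.26, adjusted p = 0.0031), with EGFP-positive replicate 3 the low array. The groups did not overlap in any of these 4 genes. Among all genes, 24.4% had every EGFP-positive array below every EGFP-negative array and 23.8% had every one above. The calls of the 4 genes held in all 17 alternative fits.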
